A study of Mus musculus with 21 samples.

Results

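Oxidative phosphorylation genes were taken from the counts table by symbol alone, and the rule uses no measured value. Of 24455 gene symbols, 94 qualified. The 81 nuclear members were all symbols beginning with Ndufa, Ndufb, Ndufc, Ndufs, Ndufv, Uqcr, Cox4 to Cox8 or Atp5, with the muscle isoform Cox6a2 and the Ndufaf assembly factors left out. The other 13 carried the prefix mt- and are the protein-coding genes of the mitochondrial genome. By prefix, 39 nuclear members belonged to complex I, 8 to complex III, 17 to complex IV and 17 to complex V, and the mitochondrial members were 7, 1, 3 and 2 of the same complexes. Ndufa4 and its paralog Ndufa4l2 were counted with complex I by their names, although the Ndufa4 protein is now generally placed in complex IV.

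In oxidative phosphorylation, complex I (NADH dehydrogenase) and complex III (ubiquinol-cytochrome c reductase) pass electrons towards complex IV (cytochrome c oxidase), which reduces oxygen. The proton gradient built on the way drives complex V, the ATP synthase. Most subunits are encoded in the nucleus and imported, while a few are transcribed inside the mitochondrion as long precursors that are cut into separate RNAs. Dendritic cells (DCs) are known to shift between oxidative metabolism and glycolysis as they mature, and cultured fibroblasts use both.

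Mouse cells were profiled singly with a droplet kit (10x Chromium 3' v3.1), in which each captured polyadenylated RNA is counted once by its unique molecular identifier (UMI). Mouse embryonic fibroblasts (MEFs) were made to express sets of haematopoietic transcription factors by lentivirus, cultured on gelatin in DMEM with 10% FBS, and sorted alive (DAPI-) for a reporter at day 3 and day 9. The sets were Pu.1 and Irf8 (PI8), these with Baft3 as the labels spell it (PIB), Pu.1 and Irf4 (PI4), these with Prdm1 (PIP), Spib and Irf8 (SI8), and these with Ikzf2 (SII). All 6 sets were given to Clec9aCre/Cre Rosa26stopflox-tdTomato/tdTomato MEFs sorted as tdTomato+ (the Clec9a line), and SI8 and SII also to hCD2Cre/WT Rosa26stopflow-YFP/WT MEFs sorted as YFP+ (the hCD2 line). A factor set in a reporter line is called an arm, and each of the 8 arms had 1 library per day. The controls were 2 libraries of wildtype, live-sorted MEFs with no transduction and 1 library each of wildtype splenic type 1 conventional DCs (cDC1, CD11c+MHC-II+CD8alpha+), type 2 conventional DCs (cDC2, CD11c+MHC-II+CD11b+) and plasmacytoid DCs (pDC, CD11c+SiglecH+B220+BST2+). Transduced cells therefore differed from the MEF controls in genotype, virus and reporter sort as well as in time, and these cannot be told apart.

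The table held 25991 cells of 2501 to 99996 UMIs, and the sums per library lay between 2291128 UMIs, for SI8 in the hCD2 line at day 3, and 89394715 UMIs, for SII in the Clec9a line at day 3. Of 210 pairs of libraries, 64 shared cell barcodes, at most 4 each. Summed fibroblast markers were 18508 and 18250 CPM (the usual scaling of UMI counts to the library total) in the MEF libraries, 14.4 CPM in the library labelled PI8 day 9, 449 to 2911 CPM in the other transduced libraries and 0.171 to 6.70 CPM in splenic cells. Summed leukocyte markers were at most 2.42 CPM in MEFs, 187 to 1281 CPM in transduced and 4328 to 7807 CPM in splenic cells. The 2 PI8 libraries did not match in Y-linked transcripts, whose summed level was above 1 CPM in only 1 of them, so results are given without them where that matters. Transcripts of the reporters or of Cre were not compared. Gm42418 and AY036118, which overlap ribosomal RNA sequence, and Lars2 are counted here together as quality transcripts. They took 8.32% and 10.8% of UMIs in the day 3 and day 9 SI8 libraries of the hCD2 line, 3.66% in SI8 of the Clec9a line at day 9 and 3.47% in PI4 at day 9, and 0.0764% to 1.17% in the other libraries.

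Nuclear oxidative phosphorylation transcripts took a larger share of UMIs in most transduced libraries than in MEFs, whereas the mitochondrial transcripts varied over a wide range with no common direction at day 3. The nuclear members summed to 2.04% and 2.08% of UMIs in the MEF libraries. At day 3 their share was 2.97% in PI8, 2.79% in PIB, 3.33% in PI4, 3.03% in PIP and 2.58% in SI8 of the Clec9a line, and 3.17% in SI8 of the hCD2 line. SII stood apart at day 3, with 1.89% in the Clec9a line and 2.06% in the hCD2 line, within or below the MEF range. At day 9 all 8 libraries were above both MEF libraries, from 2.26% (SI8, Clec9a line) to 2.89% (SI8, hCD2 line). Splenic cDC1 had 2.42%, cDC2 1.98% and pDC 1.98%. The mean share was 2.06% ± 0.0345 (SD, n = 2) in MEFs, 2.73% ± 0.520 (SD, n = 8) at day 3, 2.68% ± 0.262 (SD, n = 8) at day 9 and 2.13% ± 0.253 (SD, n = 3) in splenic DCs.

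The 13 mitochondrial members summed to 3.20% and 3.02% of UMIs in MEFs. At day 3 they took 2.42% in PI8, 2.42% in PIB, 2.40% in PI4, 3.44% in PIP and 2.05% in SI8 of the Clec9a line. Both SII libraries were above MEFs at day 3, with 4.09% in the Clec9a line and 4.17% in the hCD2 line. SI8 of the hCD2 line was far below every other library, with 0.346% at day 3 and 0.492% at day 9. The other day 9 libraries held 1.90% (PIB) to 3.00% (SII, hCD2 line), all below both MEF libraries. Splenic pDC had the highest share of the 21 libraries, 4.75%, against 1.49% in cDC1 and 1.74% in cDC2. The counting intervals of these shares were narrow, since even the shallowest library held 2291128 UMIs, so the spread between libraries set the precision.

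**Figure D1:**
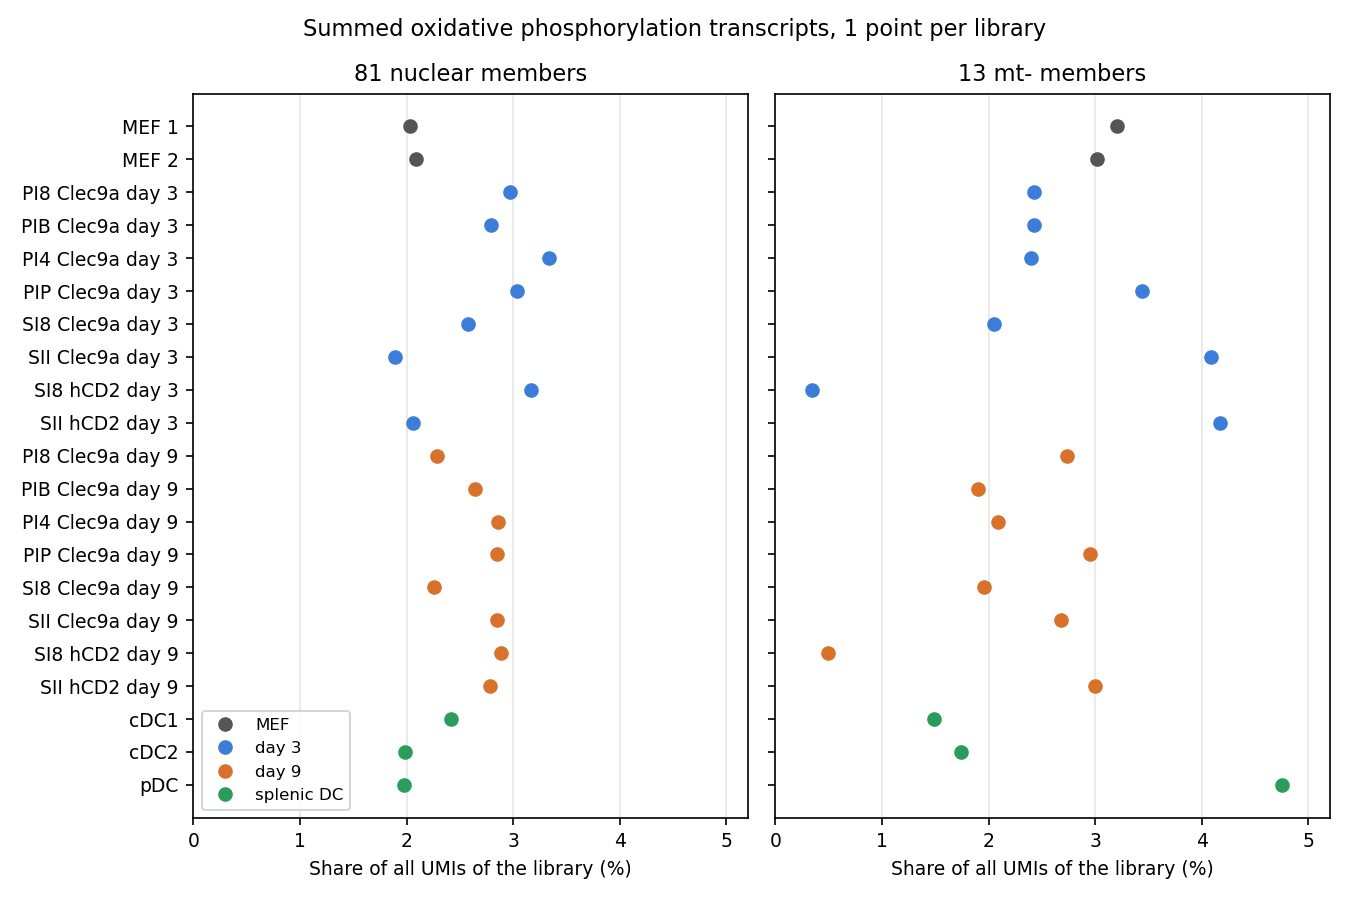
Share of all UMIs (x axes, %) taken by the 81 nuclear members (left) and the 13 mt- members (right), with 1 point per library, coloured by MEF, day 3, day 9 and splenic DC. Nuclear shares of most transduced libraries lie above the MEF points at 2.04% and 2.08%, and mt- shares range from 0.346% in SI8 of the hCD2 line at day 3 to 4.75% in pDC.

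The mitochondrial sum divided by the nuclear sum was 1.57 and 1.45 in MEFs, 0.109 to 2.16 at day 3, 0.170 to 1.19 at day 9, and 0.617, 0.878 and 2.40 in cDC1, cDC2 and pDC. Across the 21 libraries the nuclear and mitochondrial shares had a Pearson correlation of -0.49 and a Spearman correlation of -0.41. The mitochondrial share had a Pearson correlation of -0.71 with the share of quality transcripts. The nuclear complexes moved more closely together, with Pearson correlations of 0.96 between complexes I and III, 0.96 between I and IV and 0.83 between I and V. All points of these descriptions share a library total as denominator, and libraries of an arm share their origin.

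By complex, the nuclear sums lay above the MEF range in most transduced libraries. Complex I members summed to 7144 and 7275 CPM in MEFs, to a median of 9841 CPM (6369 to 11213) at day 3 and 9874 CPM (7598 to 10451) at day 9. Complex III members summed to 1893 and 1942 CPM in MEFs, with a median of 2789 CPM (1923 to 3396) at day 3 and 2892 CPM (2208 to 3215) at day 9. At day 9 all 8 libraries lay above both MEF libraries for complexes I, III and V, and 6 of 8 did for complex IV. Complex IV members had a median of 8071 CPM at day 3 and 7538 CPM at day 9, against 5742 and 5975 CPM in MEFs. Complex V members had medians of 8116 and 7567 CPM, against 5576 and 5649 CPM. In the splenic libraries complex V sums of 6317 to 8147 CPM were all above MEFs, whereas the complex I sums of 6209 to 7385 CPM lay on both sides.

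The comparison of day 3 with MEFs asked how the transduced, reporter-positive cells differed from untransduced wildtype MEFs. Here and in the other comparisons a call means that edgeR's quasi-likelihood test gave a p under 0.05 after Benjamini-Hochberg adjustment, here over 16538 genes. Of the 81 nuclear members 78 passed the filter on low counts, and 20 of them (25.6%) were called higher, against 8.70% of all genes. None of the 78 was called lower by edgeR (0 at an unadjusted p under 0.05, and 0 by DESeq2), against 8.38% of all genes. The median nuclear log2 fold change was 0.65, against 0.14 over all genes, and 72 of 78 were positive. The 3 members that did not pass were Cox7b2, Cox8b and Cox8c, isoforms of complex IV known from testis or muscle, with at most 12 UMIs in any library.

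Complex III had 5 of 8 members called higher. Uqcrfs1, the Rieske iron-sulfur protein, was at 75.9 and 78.1 CPM in MEFs and at 146 to 197 CPM (median 161) at day 3, with no overlap. Its log2 fold change was 1.26 ± 0.23 (SE; edgeR adjusted p = 0.00161). Uqcrc2, a core protein of the complex, was at 67.1 and 69.5 CPM in MEFs and at 113 to 185 CPM (median 141) at day 3, also without overlap (log2 fold change 1.21 ± 0.23, edgeR adjusted p = 0.00233). Uqcrc1, the other core protein, was at 64.8 and 67.6 CPM in MEFs. In the 2 SII libraries it was only 68.1 and 75.2 CPM, just above MEFs, while the other 6 day 3 libraries reached 114 to 164 CPM (log2 fold change 1.06 ± 0.35, edgeR adjusted p = 0.0456).

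Complex V had 5 of 17 members called higher, and among them was the nuclear member with the largest called change. Atp5b, the catalytic beta subunit of the ATP synthase, was at 237 and 238 CPM in MEFs. At day 3 it was at 644 CPM in PI8, 657 in PIB, 709 in PI4, 706 in PIP, 578 and 673 in SI8 of the Clec9a and hCD2 lines and 393 and 398 in SII of those lines. All 8 libraries lay above MEFs, and the 2 SII libraries were the lowest (log2 fold change 1.501 ± 0.33, edgeR adjusted p = 0.00545). Atp5g3, a gene of the membrane rotor subunit c, was at 157 and 158 CPM in MEFs and at 242 to 398 CPM (median 314) at day 3 (log2 fold change 1.18 ± 0.27, edgeR adjusted p = 0.00769). Atp5c1, the gamma subunit of the central stalk, was at 284 to 487 CPM against 229 and 235 CPM, above MEFs in 8 of 8 libraries. Atp5e, the epsilon subunit, went the other way in level without being called: it was at 730 and 746 CPM in MEFs and at 431 to 759 CPM at day 3, with only SI8 of the hCD2 line above MEFs (log2 fold change -0.22 ± 0.24, edgeR adjusted p = 0.555).

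Complex I had 9 of 39 members called higher, including core subunits. Ndufs3, Ndufs8, Ndufs7 and Ndufv2 were each above both MEF libraries in all 8 day 3 libraries, with log2 fold changes of 1.07, 1.04, 0.73 and 0.79 and edgeR adjusted p-values of 0.0324 to 0.0447. Ndufs8 was at 58.5 and 62.4 CPM in MEFs. At day 3 it lay at 103 to 134 CPM in 6 libraries and at 71.4 and 79.7 CPM in the 2 SII libraries.

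Complex IV had 1 of 14 tested members called. Cox5a, a subunit on the matrix side of cytochrome c oxidase, was at 302 and 308 CPM in MEFs, at 360 and 361 CPM in the SII libraries and at 594 to 706 CPM in the other 6 day 3 libraries (log2 fold change 1.10 ± 0.31, edgeR adjusted p = 0.0232). Cox4i1, the ubiquitous form of subunit 4, ranged from 861 to 1609 CPM at day 3 around the MEF values of 992 and 980 CPM and was not called.

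**Figure D2:**
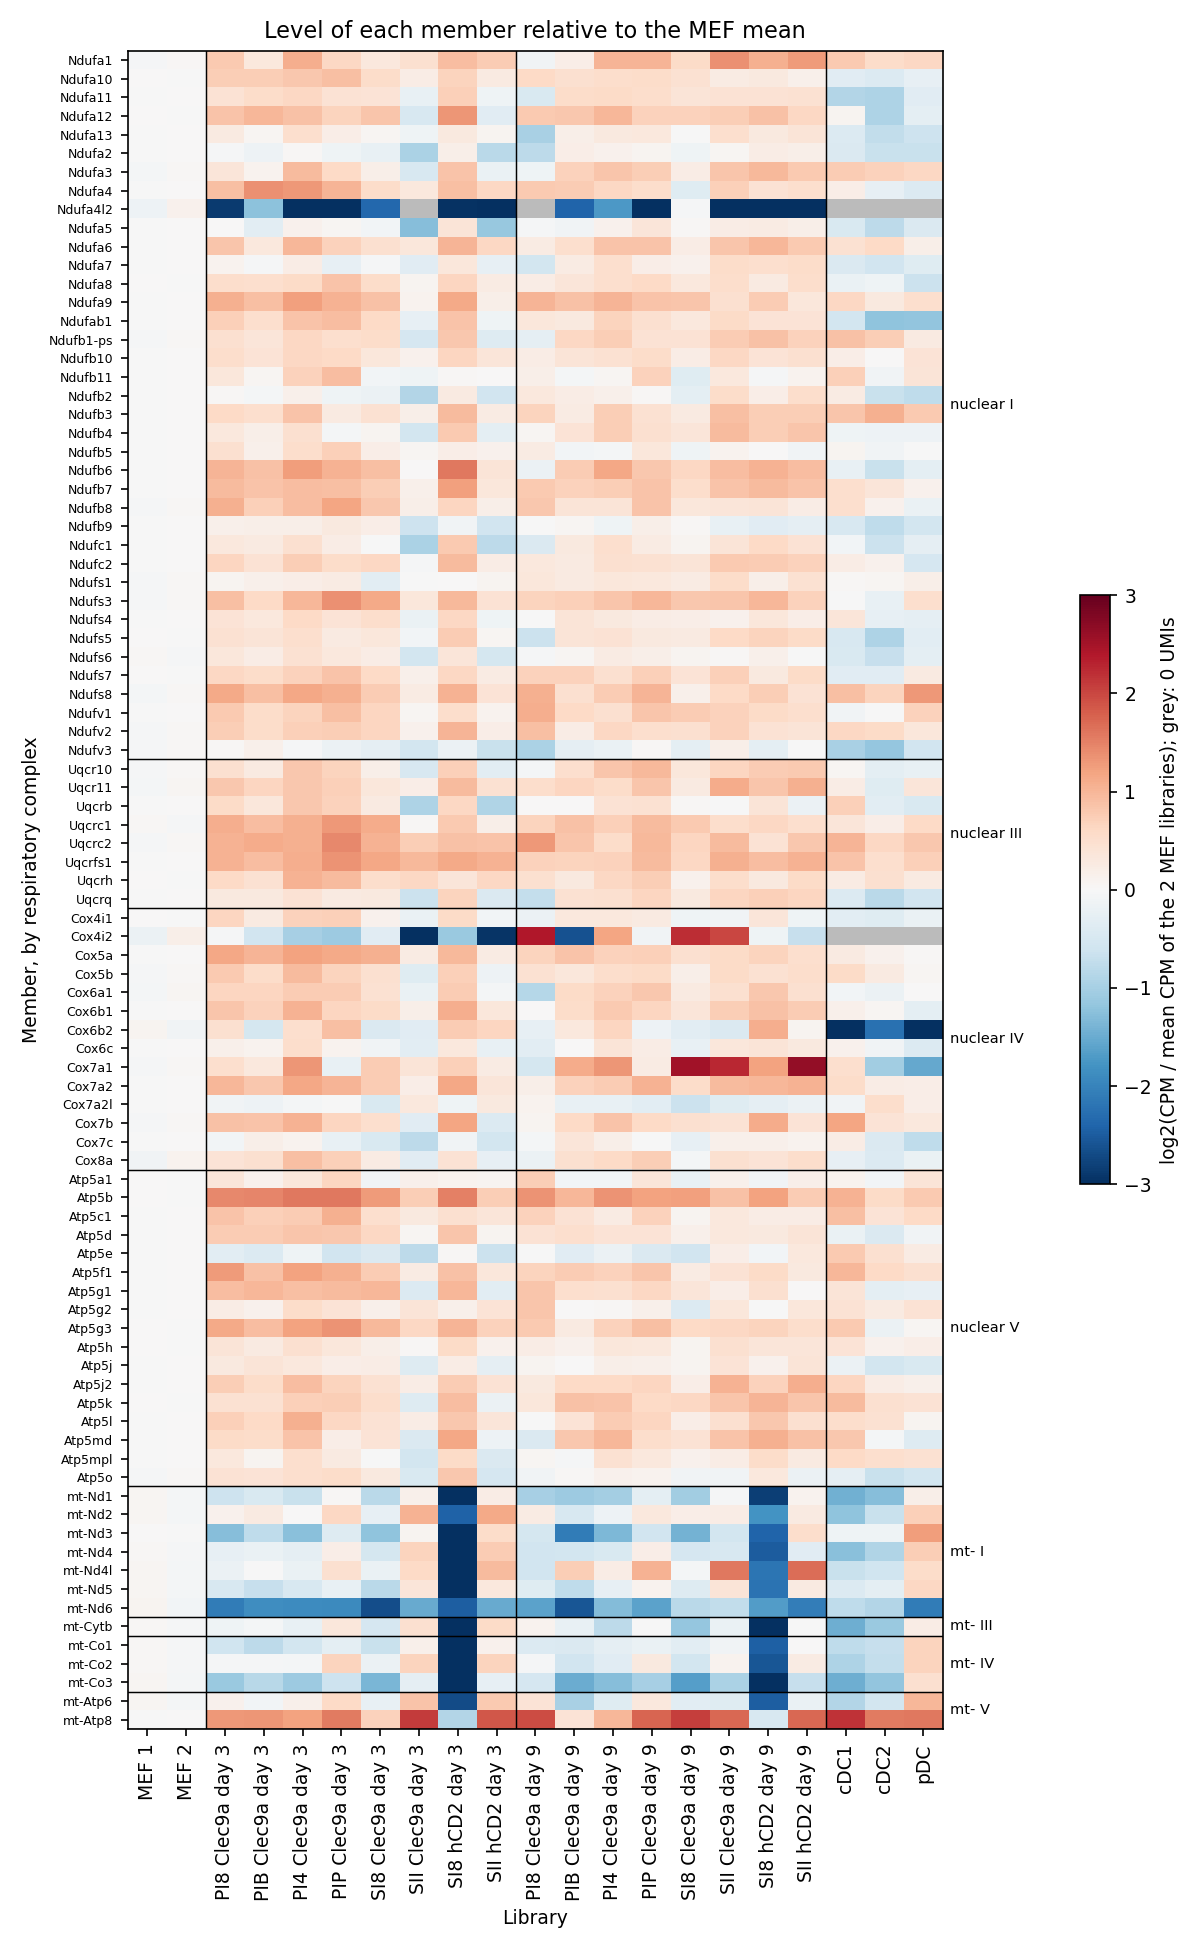
Level of the nuclear members that passed the filter, with 1 member left out, and of the 13 mt- members (rows, ordered by complex) in each of the 21 libraries (columns), as log2 of CPM over the mean CPM of the 2 MEF libraries, with colours clipped at -3 and 3 and grey for 0 UMIs. Most nuclear rows are red in the transduced columns, paler in SII at day 3, and the mt- rows are blue in the 2 SI8 columns of the hCD2 line.

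These calls rested on the 2 MEF libraries. Without either of them, in a fit with 1 MEF library left, fewer nuclear members were called and fewer genes over all. Fewer members were also called without both SI8 libraries of the hCD2 line (9, where 1295 of all 16594 genes were called higher). With cells of at least 10000 UMIs alone the number was 6, where 1221 of all 16429 genes were called higher. The share of members called was then near the background. More were called without the library labelled PI8 day 9 (32, where 2340 of all 16413 genes were called higher).

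At day 9, 3 of 78 nuclear members (3.85%) were called higher than in MEFs, against 5.01% of all genes, and none was called lower by edgeR (0 at an unadjusted p under 0.05, and 0 by DESeq2), against 5.54% of all genes. All 3 had also been called at day 3. Atp5b was at 400 to 605 CPM (median 552) at day 9 (log2 fold change 1.17 ± 0.32, edgeR adjusted p = 0.0265). Uqcrc2 was at 91.8 to 169 CPM (median 121), with a log2 fold change of 0.84 ± 0.23 (edgeR adjusted p = 0.0252). Uqcrfs1 was at 118 to 162 CPM (median 136), with a log2 fold change of 0.87 ± 0.22 (edgeR adjusted p = 0.0196). None of the 3 overlapped the MEF values in any of the 8 libraries. The median nuclear log2 fold change was 0.49, against 0.19 over all genes, and 73 of 78 were positive, so the share called was near the background while most members leaned upwards. The comparisons of day 3 and day 9 with MEFs share the MEF libraries. Without either MEF library, in a fit with 1 left, fewer nuclear members were called at day 9 and fewer genes over all. Without the library labelled PI8 day 9 the number of nuclear members was 10, where 1705 of all 16413 genes were called higher.

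Among mitochondrial members, mt-Nd6 was the only one called at day 3 or day 9 against MEFs, and it was lower at both days. It encodes a membrane subunit of complex I and is the only member on the minus strand of the mitochondrial genome. In the GENCODE vM21 annotation of GRCm38 its last 14 bases pair with the end of mt-Nd5, which runs the other way over chrM:13552-13565. Its last 60 bases (chrM:13552-13611, minus strand) are shown because reads of the 3' kit can come from this end, with the paired bases in capitals.
mt-Nd6: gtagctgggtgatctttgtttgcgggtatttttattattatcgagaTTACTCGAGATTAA
Whether the counting separated the strands was not given in the sources used here, so UMIs of mt-Nd6 and of mt-Nd5 cannot be fully told apart.

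In MEFs mt-Nd6 was at 107 and 95.1 CPM. At day 3 it was at 16.05 to 35.7 CPM (median 27.3) and at day 9 at 16.9 to 60.5 CPM (median 33.0), so all 16 transduced libraries were below both MEF libraries. The log2 fold change was -1.79 ± 0.33 at day 3 (edgeR adjusted p = 0.00175) and -1.42 ± 0.34 at day 9 (edgeR adjusted p = 0.0124). That was 1 of 13 mitochondrial members lower, 7.69%, near the background shares of 8.38% and 5.54%. By edgeR 0 of 13 were called higher at either day (1 at an unadjusted p under 0.05 at each day), and DESeq2 called 1 higher at each. Over all 16538 genes DESeq2 called 2662 higher at day 3 and 2136 at day 9. In splenic cells mt-Nd6 was at 59.7 CPM in cDC1, 54.6 CPM in cDC2 and 23.6 CPM in pDC, below both MEF libraries in 3 of 3 (log2 fold change -1.16 ± 0.46, edgeR adjusted p = 0.0520).

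The opposite tendency was seen for mt-Atp8, a small membrane subunit of the ATP synthase. Its reading frame (chrM:7766-7969, plus strand, GRCm38) shares its last 43 bases with mt-Atp6, the channel subunit, and it is printed with those bases in capitals because reads within them match both genes.
mt-Atp8: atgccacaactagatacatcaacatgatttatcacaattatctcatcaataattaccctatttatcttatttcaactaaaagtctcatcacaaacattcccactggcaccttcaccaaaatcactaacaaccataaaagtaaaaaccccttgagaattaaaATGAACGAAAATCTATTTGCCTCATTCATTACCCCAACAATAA
It was at 37.8 and 38.6 CPM in MEFs and was above both in 7 of 8 libraries at each day, SI8 of the hCD2 line being the exception at 20.95 and 27.5 CPM. Its log2 fold changes of 1.47 ± 0.59 at day 3 and 1.45 ± 0.59 at day 9 missed the threshold (edgeR adjusted p = 0.0958 and 0.123). Without the 2 SI8 libraries of the hCD2 line, left out after seeing the data, edgeR called 1 mitochondrial member higher at each day. Over all 16594 genes 1295 were then called higher at day 3 and 624 at day 9, so at day 3 the 1 call was near the background. In splenic cells it was at 172 CPM in cDC1, 112 CPM in cDC2 and 115 CPM in pDC, and was called higher than in MEFs (log2 fold change 1.76 ± 0.64, edgeR adjusted p = 0.0352).

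At day 3 and day 9 no mitochondrial member other than mt-Nd6 was called against MEFs. mt-Co3, a core subunit of complex IV, was at 6611 and 6186 CPM in MEFs and at 477 to 5368 CPM at day 3, below both in 8 of 8 libraries at each day. Its log2 fold changes of -0.78 ± 0.53 and -1.21 ± 0.52 were not called (edgeR adjusted p = 0.319 and 0.142). mt-Cytb, the only mitochondrial subunit of complex III, was at 3690 and 3554 CPM in MEFs and at 278 to 5418 CPM at day 3. The median mitochondrial log2 fold change was 0.07 at day 3 with TMM scaling and -0.06 with library totals alone, so it had no stable sign.

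Between day 3 and day 9 no member was called with the arm as a block. For nuclear members edgeR called 0 of 78 (21 at an unadjusted p under 0.05, of which 20 were lower at day 9), and DESeq2 called 11, all lower. By edgeR the background shares were also small, with 0.0373% of 16090 genes called higher and 0.0435% lower. DESeq2 called 567 of these genes higher and 636 lower. For mitochondrial members edgeR called 0 of 13 (3 at an unadjusted p under 0.05, all lower), and DESeq2 called 0. The lowest adjusted p among members belonged to Atp5g3, which was lower at day 9 in 8 of 8 arms with a log2 change of -0.50 ± 0.11 (edgeR adjusted p = 0.0983). The summed nuclear share was lower at day 9 in 6 of 8 arms and higher in both SII arms, 1.51-fold in the Clec9a line and 1.35-fold in the hCD2 line. The summed mitochondrial share was lower at day 9 in 6 of 8 arms and higher in PI8 (1.13-fold) and in SI8 of the hCD2 line (1.42-fold). Without the library labelled PI8 day 9, edgeR called 7 nuclear members lower and 1 mitochondrial member higher at day 9, while over all 16847 genes tested the calls rose to 695 lower and 577 higher.

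**Figure D3:**
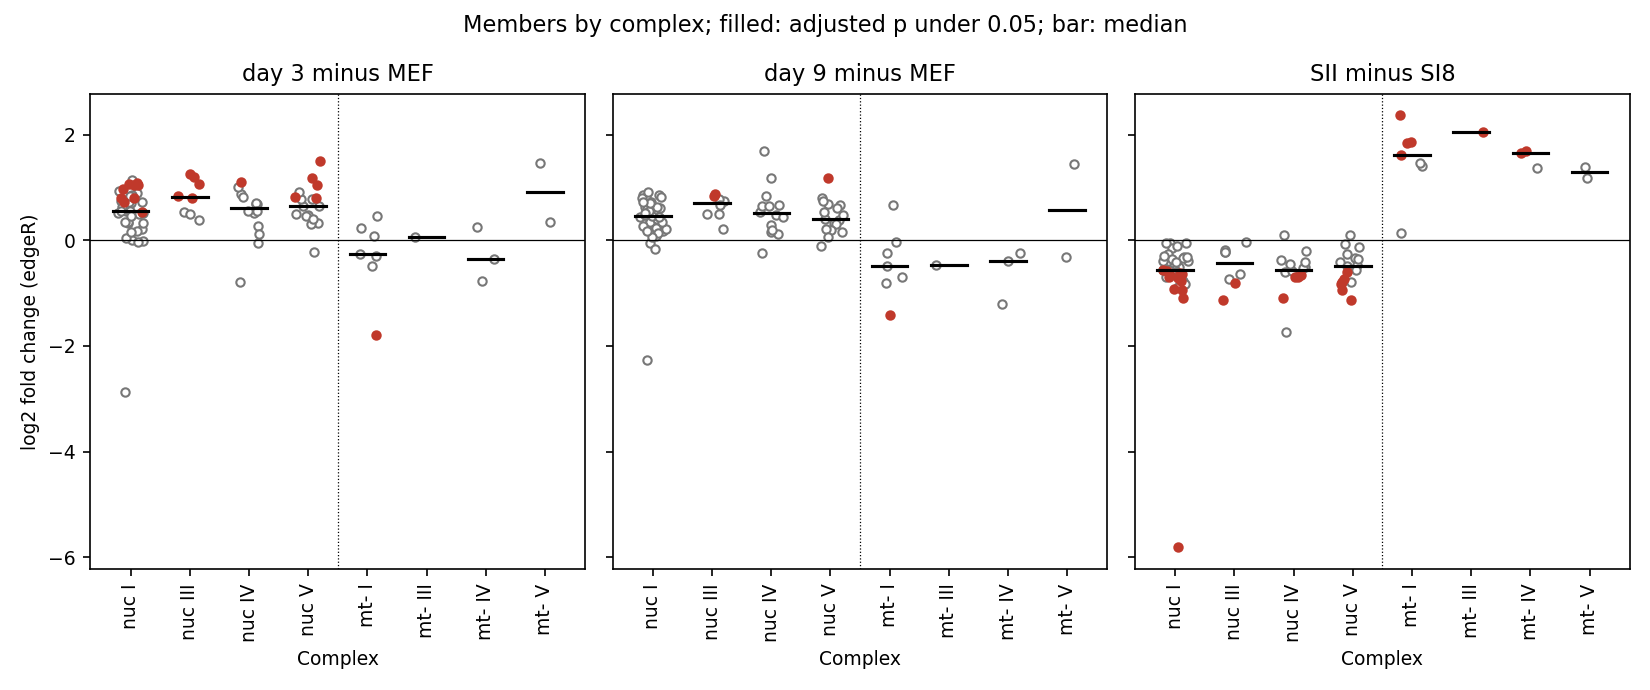
log2 fold change from edgeR (y axis) of each tested member by complex (x axis; nuc, nuclear), for day 3 minus MEF, day 9 minus MEF and SII minus SI8, with filled points for an adjusted p under 0.05 and bars for medians. Nuclear points lie mostly above 0 against MEFs and mostly below 0 in SII minus SI8, where all 13 mt- points lie above 0.

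SII and SI8, which differ by Ikzf2 (the zinc finger factor Helios), were compared within each reporter line and day over 4 pairs of libraries. The nuclear members called were all lower in SII and the mitochondrial members called were all higher. The summed nuclear share was lower in SII in 3 of 4 pairs and the summed mitochondrial share was higher in 4 of 4. Of 78 nuclear members 24 (30.8%) were called lower, against 15.7% of 15423 genes. None was called higher by edgeR (0 at an unadjusted p under 0.05, and 0 by DESeq2), against 15.0% of all genes. The median nuclear log2 fold change was -0.56, against 0.05 over all genes, and 76 of 78 were negative. Of 13 mitochondrial members 7 (53.8%) were called higher, 0 were called lower by edgeR (0 at an unadjusted p under 0.05, and 0 by DESeq2), and all 13 were positive with a median of 1.60. Cell type markers differed in the same comparison. Of 8 fibroblast markers 4 were called lower in SII, and their summed level was 630 to 838 CPM in SII and 693 to 2911 CPM in SI8. Of 6 leukocyte markers 4 were called higher and 2 lower, among them Ptprc (log2 fold change 5.53 ± 1.08) and Cd52 (-4.31 ± 0.42), with sums of 599 to 944 CPM in SII and 246 to 415 CPM in SI8. The part of cell type in the difference between members was not tested.

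The nuclear members called lower were 12 of 39 in complex I, 2 of 8 in complex III, 4 of 14 tested in complex IV and 6 of 17 in complex V. Uqcrb, the ubiquinone-binding subunit of complex III, was at 170 CPM in SII against 395 CPM in SI8 at day 3 in the Clec9a line and at 174 against 504 CPM in the hCD2 line. At day 9 the values were 323 against 335 CPM and 289 against 424 CPM. It was lower in 4 of 4 pairs, with the wider gaps at day 3 (log2 fold change -1.14 ± 0.26, edgeR adjusted p = 0.0175). Atp5g1, another gene of the rotor subunit c, was at 225, 239, 346 and 302 CPM in SII against 595, 599, 385 and 416 CPM in SI8, in the order Clec9a and hCD2 line at day 3 and then at day 9. It was lower in 4 of 4 pairs (log2 fold change -1.14 ± 0.25, edgeR adjusted p = 0.0149).

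Atp5b was at 393, 398, 438 and 400 CPM in SII against 578, 673, 560 and 552 CPM in SI8, with no overlap between the sets (log2 fold change -0.83 ± 0.16, edgeR adjusted p = 0.0102). Cox7b, a small subunit of complex IV, was at 196, 186, 334 and 328 CPM against 353, 563, 343 and 538 CPM (log2 fold change -1.10 ± 0.26, edgeR adjusted p = 0.0194). Ndufa12, an accessory subunit of complex I, was at 98.5 against 244 CPM and 108 against 343 CPM at day 3, but at 227 against 219 CPM and 209 against 249 CPM at day 9. It was lower in 3 of 4 pairs by CPM (log2 fold change -1.09 ± 0.30, edgeR adjusted p = 0.0320). Ndufa4l2, a paralog known to be induced by hypoxia, was nearly absent from SII at 0 to 0.952 CPM and was at 1.505 to 23.1 CPM in SI8 (log2 fold change -5.82 ± 1.34, edgeR adjusted p = 0.0174).

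The nuclear difference was larger at day 3 than at day 9 in CPM. At day 3 the median ratio of SII to SI8 was 0.689 in the Clec9a line, with 71 of 78 members below 1, and 0.629 in the hCD2 line, with 73 of 78 below 1. At day 9 it was 1.23 in the Clec9a line, with 63 of 79 members above 1, and 0.954 in the hCD2 line. In the test of set by day, edgeR called 0 of 78 nuclear members (37 at an unadjusted p under 0.05, all with the higher ratio at day 9), against 1.05% of all genes in either direction, and DESeq2 was not run for it. The median difference between days was 0.64 on the log2 scale, and the lowest adjusted p was 0.0557, for Ndufa5, an accessory subunit of complex I. With library totals alone in place of TMM scaling, the median log2 fold change of all genes moved from 0.05 to 0.34 and that of nuclear members from -0.56 to -0.26, so relative to all genes the nuclear median was -0.60 in place of -0.61.

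Mitochondrial transcripts were higher in SII mainly where SI8 was of the hCD2 line. The called members were mt-Nd4l, mt-Nd1, mt-Nd3 and mt-Nd5 of complex I, mt-Cytb of complex III and mt-Co2 and mt-Co3 of complex IV. mt-Nd4l was at 458 CPM in SII against 263 CPM in SI8 at day 3 in the Clec9a line, and at 584 against 25.3 CPM in the hCD2 line. At day 9 it was at 898 against 291 CPM and at 965 against 65.6 CPM. It was higher in 4 of 4 pairs (log2 fold change 2.37 ± 0.63, edgeR adjusted p = 0.0280). mt-Cytb was at 5022 against 2549 CPM and 5418 against 278 CPM at day 3, and at 3167 against 1614 CPM and 3599 against 378 CPM at day 9 (log2 fold change 2.04 ± 0.60, edgeR adjusted p = 0.0375). The other 5 had log2 fold changes of 1.60 to 1.86 and edgeR adjusted p-values of 0.0214 to 0.0485, each higher in 4 of 4 pairs.

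In the Clec9a line the median ratio of SII to SI8 over the 13 members was 2.15 at day 3, with 13 of 13 above 1, and 1.56 at day 9, with 11 of 13 above 1. In the hCD2 line it was 11.7 at day 3, with 13 of 13 above 1, and 5.58 at day 9, with 12 of 13 above 1. mt-Nd6 did not follow the others, with ratios of 2.22 and 1.05 in the Clec9a line and 1.93 and 0.759 in the hCD2 line (log2 fold change 0.14 ± 0.29, edgeR adjusted p = 0.739). Without the hCD2 line, left out after seeing the data, edgeR called 0 mitochondrial members (3 at an unadjusted p under 0.05) and 1 nuclear member lower. In that fit 534 of all 14798 genes were called higher and 1133 lower, against 2315 and 2426 of 15423 with both lines. The medians of mitochondrial and nuclear members were 0.49 and -0.39, and DESeq2 was not run on those 4 libraries. In the test of set by reporter line edgeR called 0 of 13 mitochondrial and 0 of 78 nuclear members (12 and 1 at an unadjusted p under 0.05), with 0% of all genes called, and the lowest adjusted p of a member was 0.897.

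**Figure D4:**
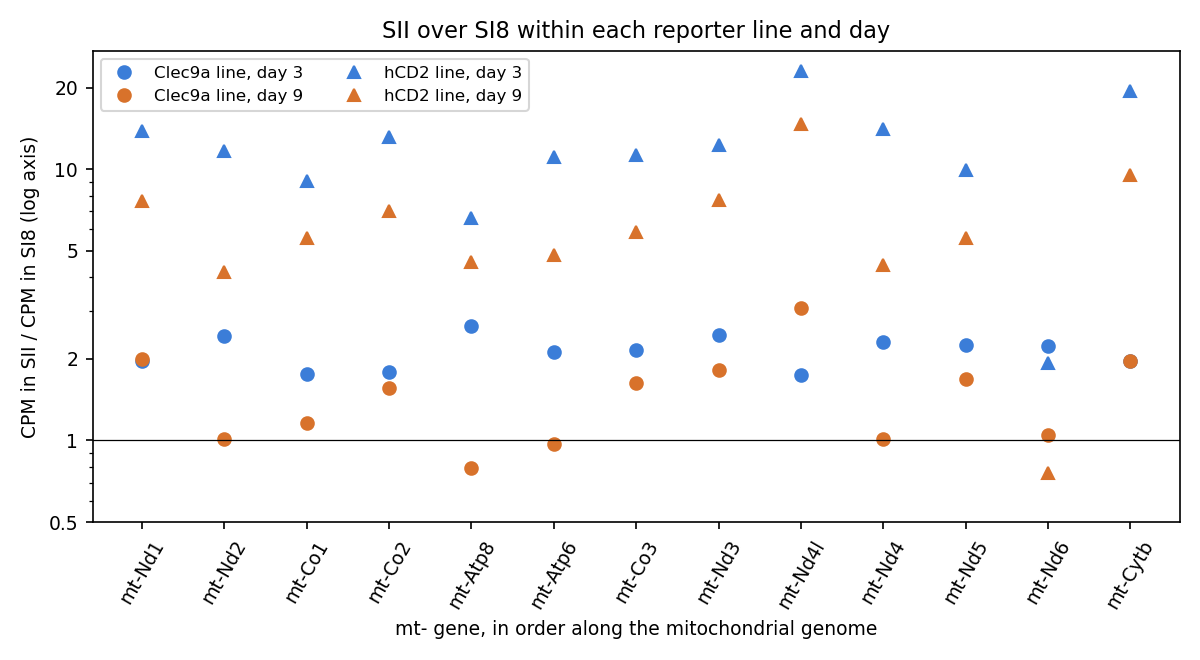
CPM in SII divided by CPM in SI8 (y axis, log scale) for each mt- gene in its order along the mitochondrial genome (x axis), with circles for the Clec9a line, triangles for the hCD2 line, blue for day 3 and orange for day 9. Ratios reach 23.1 in the hCD2 line, where those of mt-Nd6 are 1.93 and 0.759, and lie between 0.791 and 3.09 in the Clec9a line.

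In the hCD2 line SI8 and SII differed in depth and quality transcripts as well as in mitochondrial share. The 2 SI8 libraries of the hCD2 line had medians of 2765 and 2786 UMIs per cell, against 53062 and 54414 in SII of that line. Their quality transcripts took 8.32% and 10.8% of UMIs, against 0.146% to 0.593% in the 4 SII libraries. In the Clec9a line at day 3 this was not so: SI8 had the larger median, 63868 against 39646 UMIs per cell, and quality shares of 0.286% and 0.349% in SI8 and SII, while the mitochondrial shares were 2.05% and 4.09%. At day 9 in the Clec9a line SI8 had the smaller median, 10816.5 against 48532 UMIs per cell. Its quality share was 3.66% against 0.593% in SII, and the mitochondrial shares were 1.96% and 2.68%. Within SI8, mt-Nd6 was at 18.3 CPM in the hCD2 line against 16.05 CPM in the Clec9a line at day 3 and at 31.4 against 57.5 CPM at day 9, while the other 12 mitochondrial members were all lower in the hCD2 line at both days. The part of depth and quality in the SII minus SI8 difference was not tested. In the hCD2 line, and in the Clec9a line at day 9, it cannot be told apart from the factor set.

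Shallow and deep cells of 1 library could also differ. In PI4 the per-cell median mitochondrial share was 0.351% at day 3 and 0.227% at day 9, against 3.16% and 2.98% in MEFs. At day 3 its 483 cells under 10000 UMIs held 0.576% mitochondrial and 7.12% quality UMIs, while its 229 deeper cells held 2.62% and 0.432%. At day 9 the PI4 shares were 0.451% mitochondrial in the shallow cells and 2.51% in the deep cells. Of the 12 libraries with at least 20 cells in each depth class, 7 had a lower mitochondrial share and 9 a lower nuclear share in the shallow cells, and none had a lower quality share. In SI8 of the hCD2 line at day 9 the pooled shares were 0.492% in its 1172 shallow cells and 0.493% in its 31 deep cells, but the median share per cell was 0.433% in the shallow and 0.0728% in the deep cells. SII of the Clec9a line at day 9 went the other way, with 4.92% in shallow and 2.61% in deep cells.

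**Figure D5:**
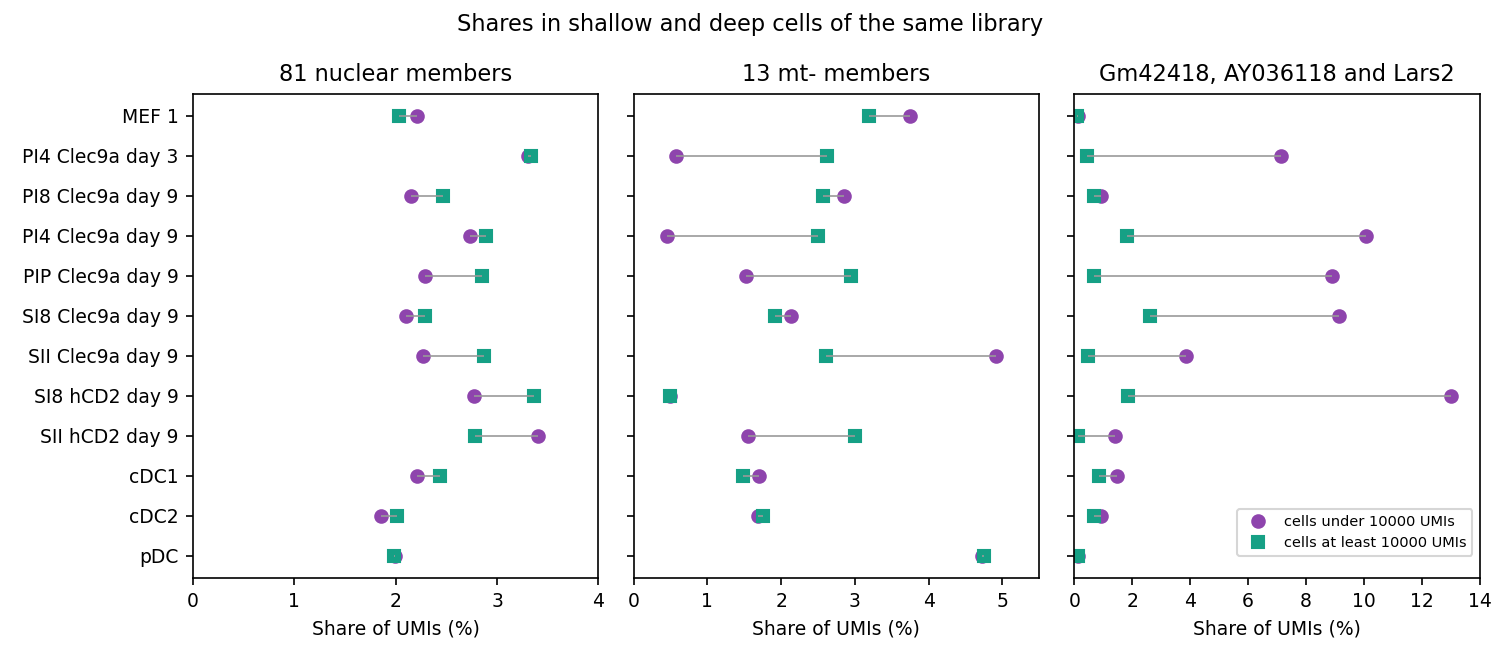
Share of UMIs (x axes, %) taken by nuclear members, mt- members and the quality transcripts Gm42418, AY036118 and Lars2 in cells under 10000 UMIs (circles) and in deeper cells (squares) of the 12 libraries with at least 20 cells of each kind. PI4 at day 3 has 0.576% mt- UMIs in shallow and 2.62% in deep cells, and SI8 of the hCD2 line at day 9 has 0.492% and 0.493%.

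Splenic DCs were compared with MEFs as 3 cell types of 1 kind, in a joint fit of all libraries. The test therefore measures the spread between types and between arms. Nuclear members did not shift as a group. Of 78 members 4 (5.13%) were called higher, against 16.4% of 17350 genes, and 5 (6.41%) lower, against 23.1%, with a median log2 fold change of -0.01 against 0.00. Uqcrc2 was at 138 CPM in cDC1, 105 in cDC2 and 120 in pDC, all above MEFs (log2 fold change 0.78 ± 0.25, edgeR adjusted p = 0.0202). Uqcrfs1 was at 140, 110 and 126 CPM in the same order (log2 fold change 0.65 ± 0.25, edgeR adjusted p = 0.0434). Ndufs8 was at 113, 95.6 and 150 CPM and Ndufb3, an accessory subunit of complex I, at 162, 193 and 157 CPM, both called higher. Ndufab1, the mitochondrial acyl carrier protein, was lower at 146, 93.2 and 94.5 CPM against 213 and 214 CPM in MEFs (log2 fold change -0.98 ± 0.37, edgeR adjusted p = 0.0403), and Ndufv3 was lower as well.

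The clearest differences between splenic DCs and MEFs were in isoforms known for restricted expression. Cox6b2, known as the testis form of a complex IV subunit, was at 74.4 and 65.1 CPM in MEFs and at 48.4 to 149 CPM in the transduced libraries. It was at 5.22 CPM in cDC1, 14.9 CPM in cDC2 and 0.847 CPM in pDC (log2 fold change -3.35 ± 0.78, edgeR adjusted p = 0.00244), while Cox6b1, the ubiquitous form, was at 361 to 490 CPM there against 432 and 446 CPM in MEFs. Ndufa4l2 had 0 UMIs in 89708635 splenic UMIs and was at 21.4 and 26.3 CPM in MEFs, at least 713-fold lower in the splenic cells, taking 3 counts over the group as the floor. Cox4i2, the hypoxia-responsive form of subunit 4, also had 0 splenic UMIs and was at least 28.3-fold lower than in MEFs. Among transduced libraries Ndufa4l2 was at 0 to 10.2 CPM in all but SI8 of the Clec9a line at day 9, which had 23.1 CPM. It was not called at day 3 (log2 fold change -2.88 ± 1.69, edgeR adjusted p = 0.243), although all 8 day 3 libraries were below both MEF libraries.

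Against day 9 cells, splenic DCs were lower in 29 of 78 nuclear members (37.2%), against 28.5% of all genes, and higher in 2 (2.56%), against 19.6%. The median nuclear log2 fold change was -0.54 against -0.21 over all genes. The lower members were 19 of 39 in complex I, 3 of 8 in complex III, 5 of 14 tested in complex IV and 2 of 17 in complex V. Ndufab1 was at 263 to 340 CPM at day 9, above all 3 splenic values (log2 fold change -1.45 ± 0.30, edgeR adjusted p = 0.000776). Ndufb6, an accessory subunit of complex I, was at 71.2 to 97.0 CPM in splenic cells and 99.9 to 255 CPM at day 9 (log2 fold change -1.28 ± 0.35, edgeR adjusted p = 0.00610). Cox6b2 (log2 fold change -3.63 ± 0.70) and Cox7a1, the muscle form of subunit 7a (0.640 to 2.65 CPM against 1.29 to 11.6 CPM), were lower too. Cox7a2l, a factor of respiratory supercomplexes, was at 342 CPM in cDC1, 537 CPM in cDC2 and 422 CPM in pDC against 236 to 398 CPM at day 9 and was called higher (log2 fold change 0.41 ± 0.16, edgeR adjusted p = 0.0381). Atp5e was the other, at 875 to 1263 CPM against 496 to 913 CPM (log2 fold change 0.59 ± 0.21, edgeR adjusted p = 0.0269).

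Without cDC2 the number of nuclear members called lower or higher than at day 9 was 10, where 6449 of all 17108 genes were called. Without pDC the number of nuclear members was 19, where 6963 of all 17078 genes were called. With every library kept, 29 nuclear members were called lower and 2 higher, and 8349 of all 17350 genes were called. Calls over all genes fell as well, but by a smaller share than those of the nuclear members. For mitochondrial members against day 9, edgeR called 0 of 13 (1 at an unadjusted p under 0.05), and DESeq2 called 1. cDC1 and cDC2 were close to each other and pDC stood apart: mt-Co1, the catalytic subunit of complex IV, was at 3632 CPM in cDC1, 3764 CPM in cDC2 and 9729 CPM in pDC, and mt-Nd3 was at 303, 301 and 792 CPM. With 1 library per splenic type, the difference between types has no test. Quality transcripts took 0.880% of UMIs in cDC1, 0.722% in cDC2 and 0.115% in pDC, and their part in this difference was not tested.

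Related mitochondrial genes outside the membership were counted from lists chosen with earlier results of these data known. At day 3 against MEFs, 4 of 9 genes of complex II and electron carriers were higher, among them cytochrome c itself (Cycs, log2 fold change 2.11 ± 0.50, edgeR adjusted p = 0.00906). Of 44 assembly factors 10 were higher, including Coa5 and the copper chaperone Cox17. Of 16 genes of the tricarboxylic acid cycle 5 were higher, among them citrate synthase (Cs, log2 fold change 1.47 ± 0.34, edgeR adjusted p = 0.00710), and 17 of 78 mitochondrial ribosomal protein genes were higher. The background was 8.70% of all genes called higher. Of 25 genes for mitochondrial DNA expression, 11 regulators of mitochondrial biogenesis and 16 glycolysis genes, 1 each was higher (Elac2, Esrra and Gpi1), which is near or below that background. None of these lists had a gene called lower at day 3.

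In SII against SI8, 4 of 9 complex II and carrier genes, 4 of 16 tricarboxylic acid cycle genes, 5 of 16 glycolysis genes and 32 of 78 mitochondrial ribosomal protein genes were lower, against 15.7% of all genes, and none of these 4 lists had a gene called higher. Their median log2 fold changes were -0.63, -0.27, -0.57 and -0.53, so the nuclear members at -0.56 lay among them. Assembly factors had 6 of 44 genes lower and 2 higher, both below the background shares, with a median of -0.28. Regulators of mitochondrial biogenesis had 1 of 10 tested genes lower and 0 higher, with a median of 0.26. Of 25 mitochondrial DNA expression genes 3 were higher, including the polymerase Polg and Mterf1a, and 1 was lower. In splenic DCs 12 of 16 glycolysis genes were lower than in MEFs, against 23.1% of all genes, and 13 of 16 lower than at day 9, against 28.5%, with median log2 fold changes of -1.996 and -2.05.

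Promoters of nuclear members were scanned in RefSeq windows of GRCm38.p6, 250 bases before to 50 bases after each gene's start, since many members moved together. Of 81 nuclear members 67 had a window. The motifs searched, on both strands, were the NRF1 palindrome (capitals in the Uqcrc1 window), CCGGAAG for ETS factors, AAGATGGC for YY1 and GAGGAAGT for PU.1 and Spi-B, and 7 pairs of matches to different motifs overlapped. NRF1 letters were in 5 member promoters (7.46%) against 1.07% of 27025 genes, ETS letters in 15 (22.4%) against 9.93%, YY1 letters in 10 (14.9%) against 3.19% and PU.1 letters in 3 (4.48%) against 3.69%. Among the 18 members with a window that were called higher at day 3, the counts were 1, 5, 3 and 0 in the same order, and among 19 called lower in SII they were 4, 3, 5 and 2.

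The first 3 windows below belong to members called higher at day 3, each showing 1 of the first 3 motifs in capitals. The windows are printed on the strand of the gene, and the ETS and YY1 letters lie on the opposite strand, so the capitals are their reverse complements. They are Uqcrc1 (chr9:108936398-108936697, plus strand), Uqcrh, the hinge protein of complex III (chr4:116075021-116075320, minus strand), and Atp5f1, the peripheral stalk subunit b (chr3:105959214-105959513, minus strand). The window of Cox6b2 (chr7:4753045-4753344, minus strand), the isoform low in splenic cells, held none of the 4 motifs. Uqcrh and Atp5f1 were chosen after their values were seen, with log2 fold changes of 0.83 ± 0.24 and 1.04 ± 0.32 at day 3 (edgeR adjusted p = 0.0246 and 0.0323).
Uqcrc1: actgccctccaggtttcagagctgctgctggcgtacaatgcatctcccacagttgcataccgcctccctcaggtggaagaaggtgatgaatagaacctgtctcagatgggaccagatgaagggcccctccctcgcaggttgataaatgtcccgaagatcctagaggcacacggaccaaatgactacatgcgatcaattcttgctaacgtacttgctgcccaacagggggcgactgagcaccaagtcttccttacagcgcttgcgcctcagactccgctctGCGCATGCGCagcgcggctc
Uqcrh: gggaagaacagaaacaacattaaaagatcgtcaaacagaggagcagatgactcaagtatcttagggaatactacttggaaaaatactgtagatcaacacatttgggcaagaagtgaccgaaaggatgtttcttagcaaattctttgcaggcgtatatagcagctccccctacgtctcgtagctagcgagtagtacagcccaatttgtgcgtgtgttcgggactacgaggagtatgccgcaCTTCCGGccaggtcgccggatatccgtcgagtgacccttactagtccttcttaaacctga
Atp5f1: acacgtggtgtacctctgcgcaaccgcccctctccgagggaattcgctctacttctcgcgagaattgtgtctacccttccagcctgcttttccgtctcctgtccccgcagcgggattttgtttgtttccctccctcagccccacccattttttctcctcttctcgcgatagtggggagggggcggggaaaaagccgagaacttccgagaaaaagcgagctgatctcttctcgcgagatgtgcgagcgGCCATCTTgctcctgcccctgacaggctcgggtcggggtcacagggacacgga
Cox6b2: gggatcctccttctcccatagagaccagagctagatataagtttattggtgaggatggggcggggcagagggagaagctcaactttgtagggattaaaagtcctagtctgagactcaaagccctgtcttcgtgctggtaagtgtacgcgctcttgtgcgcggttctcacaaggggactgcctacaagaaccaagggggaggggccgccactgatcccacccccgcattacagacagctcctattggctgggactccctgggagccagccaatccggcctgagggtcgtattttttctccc
These matches are a description of letters in the windows and were not tested against the fold changes.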

How the data were processed

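The deposited table held raw UMI counts per gene and cell, which the authors made with Cell Ranger 6.0.1 and Seurat on mm10, per the submitters' processing notes. The sources used here do not give the Seurat version, the cell filters, the annotation or the strand setting. Cells were assigned to 21 libraries by the prefix of their names, and 0 columns were without a library. Counts were summed per library, and no doublets were called or removed. The 2 MEF libraries differed by more than sampling noise (chi-square per degree of freedom 2.35 over 15245 genes).

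Sums were tested with edgeR 4.0.16 in R 4.3.3 (filterByExpr, TMM scaling, quasi-likelihood test, Benjamini-Hochberg adjustment over all genes tested). Day 9 minus day 3 had the arm as a block and SII minus SI8 had the pair of line and day, both taken from the labels. Day 3 and day 9 were set against MEFs in a joint fit of the transduced and MEF libraries. Splenic DCs were compared in a joint fit of all 21 libraries. These joint fits had no block, so the arms of a day counted as its replicates and every library entered the spread. The code was run on simulated counts with a spread well under the real one. That run asked only whether the changed genes were found with the right sign. DESeq2 1.42.0, other scalings and filters, deeper cells, thinning and leaving out each library were alternatives. Nothing in the labels says that libraries came from separate cultures or animals, so p-values measure the spread between libraries, which may be technical. Counting intervals and floors (3 counts) cover counting error only.

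The rule for members uses symbols only, but it and the lists were chosen with earlier results of these data known. Named were, per comparison, the 5 called nuclear members with the largest change in each direction and a mean of at least 5 CPM in 1 group, all mitochondrial members, core subunits and tissue isoforms, and up to 3 called genes of each other list. Mitochondrial sequences came from GENCODE vM21 (GRCm38) and promoters from RefSeq (GRCm38.p6). Tables and figures were made with Python 3.11.15, pandas 2.3.3, numpy 2.4.6, scipy 1.17.1 and matplotlib 3.10.9. Values of 1 nuclear member are not reported here, and it was kept in all fits and counts.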

Additional observations from a re-analysis of the deposited data

Results flagged for a closer look

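In 14 of 180 groups of libraries and measures, 1 library lay far from the others by Dixon's gap test, and chance gives about 1 in 20 groups. Among day 9 libraries, SI8 of the hCD2 line was low in mitochondrial share (0.492%) and in mt-Co1 (1114 CPM), SII of the hCD2 line was high in mt-Nd3 (477 CPM), SI8 of the Clec9a line was high in Ndufa4l2 (23.1 CPM), and the library labelled PI8 was low in Ndufa11 (158 CPM) and Uqcrq (262 CPM). Among day 3 libraries, PIB was high in Ndufa4l2 (10.2 CPM) and PIP was high in Uqcrc2 (185 CPM). Among the 4 SII libraries, the Clec9a line at day 9 was high in Atp5b (438 CPM) and Cox4i2 (3.81 CPM). Among the 4 SI8 libraries, the Clec9a line at day 9 was high in Cox4i2 (4.43 CPM), Cox7a1 (10.7 CPM) and Ndufa4l2 (23.1 CPM), and the hCD2 line at day 3 was high in Ndufa11 (354 CPM).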

How the results depend on the processing

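Counts of called members moved with the processing, and no named member that was called changed sign: of the values of these members under the alternatives, 1210 stayed on the same side of the threshold and 290 no longer passed it. At day 3 against MEFs the 20 nuclear calls became 11 with DESeq2 size factors, 13 with no filter and 7 after thinning. Calls higher over all genes went from 1439 of 16538 to 1300, 1169 of 22416 and 742 of 11501 in the same order. With cells of at least 10000 UMIs 6 nuclear members were called, near the share over all genes (1221 of 16429 higher). The nuclear calls became 32 without the library labelled PI8 day 9 and 9 without the SI8 libraries of the hCD2 line. The 1 mitochondrial call became 2 with deeper cells, DESeq2 or without those SI8 libraries. At day 9 the 3 nuclear calls became 5 with library totals, 8 with DESeq2, 10 without PI8 day 9 and 8 without both PI8 libraries, and the 1 mitochondrial call became 2 with DESeq2 and 3 without the SI8 libraries of the hCD2 line. Between days, 0 nuclear calls became 11 with DESeq2 and 7 without PI8 day 9 or both PI8 libraries, where 0 mitochondrial calls became 1. Over all genes DESeq2 called 567 of 16090 higher and 636 lower. Without both PI8 libraries 607 of 16164 genes were called higher and 712 lower. Leaving out the arm block left 0 calls of either kind.

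For SII minus SI8 the 24 nuclear calls became 3 with deeper cells, 6 with library totals and 1 without the hCD2 line. The 7 mitochondrial calls became 2, 12 and 0 in the same settings and 12 with DESeq2. Over all genes the split of 2315 higher and 2426 lower became 991 and 1386 with deeper cells, 4214 and 1737 with library totals and 534 and 1133 without the hCD2 line. Between days 6 and 7 became 10 and 5 with library totals. For splenic DCs against MEFs the 9 nuclear calls became 5 with deeper cells, and the 1 mitochondrial call became 2 with DESeq2, without PI8 day 9 and without the SI8 libraries of the hCD2 line. Against day 9, 0 mitochondrial calls became 1 with DESeq2, DESeq2 size factors, deeper cells, thinning and without those SI8 libraries. The summed nuclear share of MEFs was 2.13% with mitochondrial and quality genes out of the totals. The settings without both PI8 libraries, the SI8 libraries of the hCD2 line or the whole line were chosen after seeing the data. The causes of these moves were not tested.

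With 1 library left out at a time, nuclear and mitochondrial calls ranged from 0 to 32 and 1 to 2 for day 3 minus MEF, 0 to 10 and 0 to 2 for day 9 minus MEF, 0 to 7 and 0 to 1 for day 9 minus day 3, 1 to 41 and 0 to 12 for SII minus SI8, 3 to 12 and 0 to 2 for splenic DC minus MEF, and 10 to 39 and 0 to 1 for splenic DC minus day 9. In SII minus SI8, mitochondrial calls were 0 without either hCD2 library of day 3 and 12 without either Clec9a library of day 9, and nuclear calls were 1 without either hCD2 library of day 3 and 41 without SII of the Clec9a line at day 9. Against splenic DCs, the MEF comparison had 5 nuclear calls without cDC1. It had fewer nuclear calls without either MEF library, where fewer genes were called over all too.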
